A study of Mus musculus with 74 samples.

Results

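Genes that make, break down or control polyamines were followed through mouse quadriceps with and without the transcriptional repressor BCL6. They are 10 of the 24940 genes listed, found by exact match to their symbols in every RNA table: Smox, Odc1, Amd1, Sat1, Srm, Sms, Oaz1, Oaz2, Azin1 and Paox. By nearest-gene name they also hold 50 of 73866 H3K27ac regions and 13 of 10925 BCL6 peaks. Smox was chosen by its measured log2 change in knockout poly(A) RNA and RiboTag mRNA, already known to be negative, and the other members by their place in the pathway. Member values from those comparisons are therefore a description: no p-value is printed for a member there, and the counts past the threshold are given beside the share of all genes with nothing read from them. Footprints, nascent RNA and H3K27ac were not used in the choice and are tested. Footprints, however, come from the RiboTag animals, and H3K27ac at BCL6 peaks from mice of the poly(A) set. Tests of Smox in these animals are therefore not independent of its choice. Nascent RNA and the acute and chronic H3K27ac series used other animals.

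Polyamines are small positively charged molecules that bind nucleic acids and are needed for translation and growth. Ornithine decarboxylase (Odc1) makes putrescine, and S-adenosylmethionine decarboxylase (Amd1) makes the aminopropyl donor with which spermidine synthase (Srm) and spermine synthase (Sms) extend it to spermidine and spermine. Spermine oxidase (Smox) turns spermine directly back into spermidine, while spermidine/spermine acetyltransferase (Sat1) and the acetylpolyamine oxidase Paox do so through acetylated forms. The antizymes Oaz1 and Oaz2 bind ornithine decarboxylase and send it to the proteasome, and the antizyme inhibitor Azin1 frees it. In skeletal muscle, Smox is known as a gene that falls when fibres waste.

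All mice were C57BL/6 and all samples were quadriceps. The knockouts for poly(A) RNA and H3K27ac were labelled AEC-Esr Cre-positive with floxed Bcl6 (Bcl6 fl/fl) and were given tamoxifen. Their controls were Cre-negative Bcl6 fl/fl mice, also given tamoxifen, and, for poly(A) RNA, Cre-positive Bcl6 fl/fl mice given oil. RiboTag knockouts were Cre-positive, Bcl6 fl/fl and RiboTag-positive, and RiboTag controls were Cre-positive and RiboTag-positive with no floxed Bcl6 named, all given tamoxifen. RiboTag is an HA-tagged ribosomal protein switched on by Cre, so that HA beads pull down ribosomes of Cre-active cells. Nascent RNA came from wild-type mice given FX1, a small-molecule inhibitor of BCL6, or its solvent DMSO, and BCL6 binding from 1 wild-type library. The labels do not spell out the promoter behind AEC and give no age.

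There were 5 knockout, 4 Cre-negative and 4 oil poly(A) libraries (6.70 M to 7.62 M tags, M being 1000000), 4 knockout and 4 control RiboTag animals with an mRNA library (6499561 to 13045854 counts) and a footprint library (3248807 to 4370468 counts) each, 5 FX1 and 5 DMSO nascent libraries (13.9 M to 32.7 M tags), and, for each of 3 H3K27ac data sets, 3 knockouts and 3 Cre-negative mice. The labels list the anti-HA antibody also for RiboTag mRNA, and which RNA was sequenced, total or pulled down, is not known. All 8 fibre markers examined (Acta1, Ckm, Ttn, Myh4, Myh1, Des, Tnnt3 and Mylpf) were present, at a summed 15460 to 19080 CPM (counts per M) in RiboTag knockout mRNA and 17720 to 25790 CPM in controls. In poly(A) RNA, whole-gene Bcl6 overlapped between knockouts (9.98 to 10.25 on the authors' log2 scale) and Cre-negative mice (10.21 to 10.41), and not between knockouts (10.004 to 10.28) and oil-treated mice (10.31 to 10.52). Bcl6 whole-gene mRNA overlapped between RiboTag groups (186 to 273 CPM in knockouts, 125 to 314 CPM in controls), whereas its footprints did not (70.2 to 107 CPM in knockouts, 119 to 257 CPM in controls). In these bulk samples, fewer cells of a type and less RNA per cell cannot be told apart.

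The start regions of the genes are shown for the 3 enzymes whose RNA was lowest relative to control, and for Oaz1, whose start region meets a BCL6 peak. Each run covers 250 bases before to 50 bases after the start on the strand of the gene (RefSeq, GRCm38.p6). Capitals mark GGGCGG or its complement CCGCCC in the first 3, and the 50 bases inside the listed BCL6 peak in Oaz1.
Smox, chr2:131491612-131491911, plus strand: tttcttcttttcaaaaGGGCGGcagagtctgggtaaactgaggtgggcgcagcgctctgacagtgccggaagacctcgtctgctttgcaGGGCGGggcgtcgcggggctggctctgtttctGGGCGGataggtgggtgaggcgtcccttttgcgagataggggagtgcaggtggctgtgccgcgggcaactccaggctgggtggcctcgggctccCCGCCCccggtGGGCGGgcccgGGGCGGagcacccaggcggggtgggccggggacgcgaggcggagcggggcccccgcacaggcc
Amd1, chr10:40302139-40302438, minus strand: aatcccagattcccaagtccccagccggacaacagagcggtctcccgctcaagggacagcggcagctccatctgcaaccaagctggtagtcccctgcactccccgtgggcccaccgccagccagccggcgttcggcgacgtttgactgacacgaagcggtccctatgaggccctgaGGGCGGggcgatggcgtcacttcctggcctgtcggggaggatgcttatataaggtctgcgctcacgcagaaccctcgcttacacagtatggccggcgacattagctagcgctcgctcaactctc
Odc1, chr12:17544623-17544922, plus strand: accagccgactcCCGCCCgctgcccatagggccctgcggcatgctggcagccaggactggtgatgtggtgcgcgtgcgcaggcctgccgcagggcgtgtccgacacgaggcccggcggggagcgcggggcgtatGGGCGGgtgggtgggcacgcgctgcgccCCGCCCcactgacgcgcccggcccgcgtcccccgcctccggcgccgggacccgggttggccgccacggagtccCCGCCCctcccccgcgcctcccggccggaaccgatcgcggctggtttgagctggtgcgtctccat
Oaz1, chr10:80826406-80826705, plus strand: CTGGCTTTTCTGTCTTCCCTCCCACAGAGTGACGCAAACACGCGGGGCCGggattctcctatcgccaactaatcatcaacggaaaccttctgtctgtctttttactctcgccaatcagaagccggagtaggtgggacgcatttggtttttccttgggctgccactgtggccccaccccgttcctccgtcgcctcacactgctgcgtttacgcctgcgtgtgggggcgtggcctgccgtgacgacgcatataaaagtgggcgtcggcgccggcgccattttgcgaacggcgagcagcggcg

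Of the members, 8 had a start region in the RefSeq table, with 10 sequences in all. GGGCGG, searched on both strands, was found 6 times in Smox, 4 times in Odc1 and 1 time in Amd1, in 8 of the 10 member sequences and in 35.7% of all 32851 start regions. The 2 Paox sequences overlap and hold the same copies, so the 8 are not separate genes. TTCCNNGAA, a short form of the element that BCL6 can bind, was in none of the 10 and in 4.81% of all. CACGTG, the E-box bound by MYC and related factors, was in 1 of 2 Sms sequences and in 7.15% of all. TGACGTCA, the full cAMP response element, was in none of the 10 and in 1.79% of all. TATAAA was in Oaz1 and in 13.6% of all. No motif overlapped another in the runs printed, and the motifs were chosen with the data at hand.

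Smox comes first, as the member chosen by its log2 change in poly(A) RNA and RiboTag mRNA. Its values and ranks among all genes there are therefore a description. Smox (chr2:131491862-131525183, mm10, plus strand) was at 9.17, 8.98, 9.08, 9.19 and 9.09 in knockouts P1895, P1896, P1900, P1907 and P1911, against 9.95, 9.73, 9.82 and 9.99 in Cre-negative mice P1898, P1899, P1906 and P1909, on the authors' transformed log2 scale for poly(A) RNA. The groups did not overlap, and the highest knockout lay below the lowest control. The log2 change was -0.77 (SE 0.053), the 7th lowest of 13732 genes. In the table that sets the same 5 knockouts beside oil-treated mice, normalized by itself, knockouts were at 9.26, 9.05, 9.16, 9.27 and 9.17, and oil-treated mice P1897, P1904, P1905 and P1910 at 10.36, 10.54, 10.62 and 10.49. This log2 change was -1.32 (SE 0.052), the 2nd lowest of 13754 genes.

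Amd1 and Odc1, which feed spermidine and spermine synthesis, were lower by less. Amd1 (chr10:40287458-40302188, minus strand) was at 8.90, 8.88, 8.90, 8.94 and 8.89 in knockouts, against 9.22, 9.19, 9.27 and 9.34 in Cre-negative mice, a log2 change of -0.35 (SE 0.031) with knockouts within a narrow range below every control. Against oil it was -0.55 (SE 0.026), with knockouts at 8.92 to 8.99 and oil-treated mice at 9.46 to 9.56. Odc1 (chr12:17544873-17551502, plus strand) was at 8.69, 8.71, 8.81, 8.96 and 8.65 in knockouts, against 9.14, 8.98, 9.01 and 9.10 in Cre-negative mice, a log2 change of -0.29 (SE 0.056). Knockout P1907 lay closest to the controls without reaching them. Against oil the Odc1 groups overlapped, at 8.60 to 8.94 in knockouts and 8.76 to 9.04 in oil-treated mice (log2 change -0.13, SE 0.069).

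Azin1, which protects ornithine decarboxylase (chr15:38487430-38519266, minus strand), was at 9.67, 9.67, 9.59, 9.65 and 9.65 in knockouts, against 9.92, 10.22, 9.94 and 9.98 in Cre-negative mice. The log2 change was -0.37 (SE 0.051), and Cre-negative P1899 was the highest of the 9 mice. Against oil it was -0.27 (SE 0.050), with no overlap of the groups (9.58 to 9.67 in knockouts, 9.75 to 10.08 in oil-treated mice). The synthases, the acetylation route and the antizymes differed from both controls by log2 changes of -0.02 to 0.07. Between knockout and Cre-negative muscle the log2 changes were 0.02 for Srm, 0.05 for Sms, -0.02 for Sat1, 0.01 for Paox, -0.01 for Oaz1 and -0.02 for Oaz2.

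As a description of values that the choice of Smox used, 4 of the 10 members (Smox, Amd1, Azin1 and Odc1) lay past an adjusted p of 0.05 against Cre-negative mice, all lower, beside 15.3% of 13732 genes in either direction and 9.22% lower. Against oil, with the same knockout mice, 3 of 10 (Smox, Amd1 and Azin1) lay past it, all lower, beside 23.4% of 13754 genes in either direction and 13.5% lower. The median log2 change of the members was -0.02 against Cre-negative mice, beside 0.00 over all genes, and -0.01 against oil, beside 0.00. Of 26 markers of other cell types tested, 1 was lower against Cre-negative mice, the fibroblast gene Col1a1, and against oil 2 were lower, while all 3 erythroid markers were higher. Of the 8 fibre markers, 3 were lower against Cre-negative mice, and 2 lower and 1 higher against oil. The part of these cells in the members' values was not tested.

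**Figure D1:**
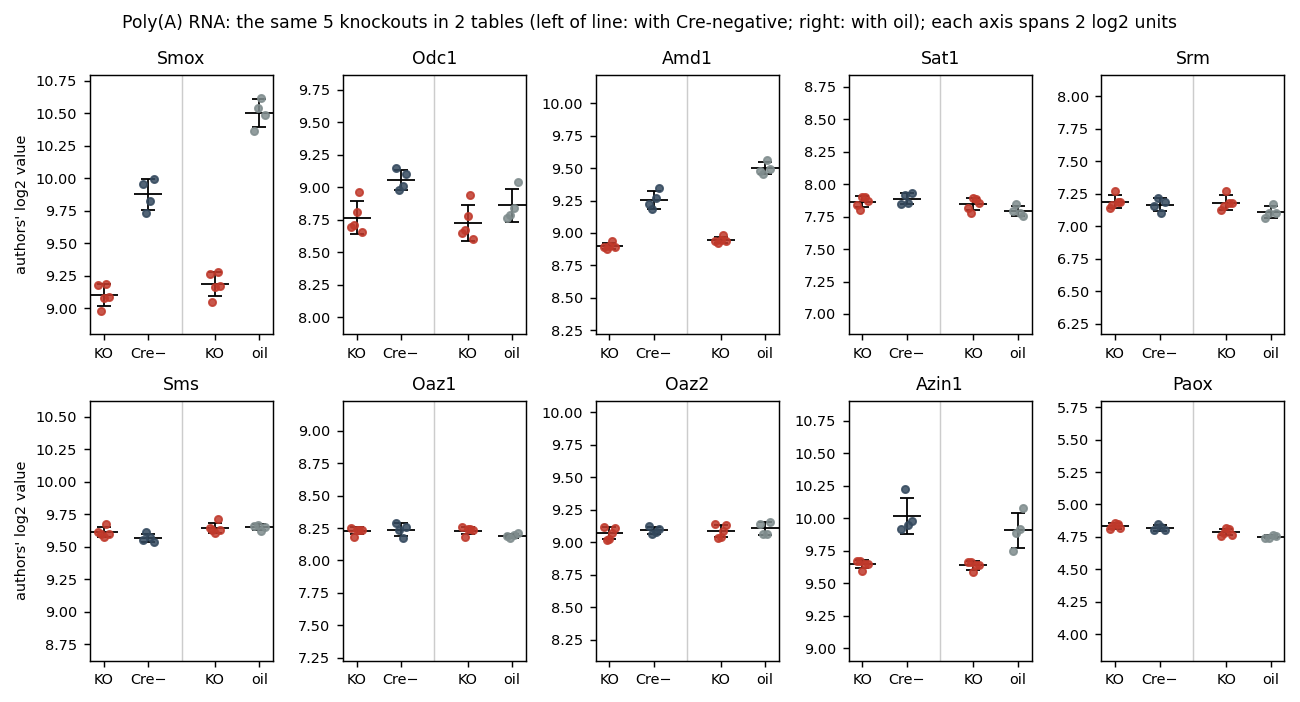
Authors' log2 values of the 10 members in poly(A) RNA by animal, with mean and SD: left of the line 5 knockouts (KO) and 4 Cre-negative mice, right of it the same 5 knockouts and 4 oil-treated mice. Smox knockouts sit at 8.98 to 9.19 below Cre-negative mice at 9.73 to 9.99, while Sat1, Srm, Oaz1, Oaz2 and Paox overlap in both tables.

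The RiboTag mRNA libraries, from other animals, gave larger log2 changes for the same 4 members, but on another scale. These changes come from counts, whereas the poly(A) changes are differences of the authors' transformed values, so their sizes cannot be compared directly. The authors' deposited poly(A) log2 changes against Cre-negative mice were -1.07 for Smox, -0.55 for Amd1, -0.43 for Odc1 and -0.50 for Azin1. Against oil they were -1.72, -0.80, -0.19 and -0.36. Smox was at 89.5, 129, 122 and 109.7 CPM in knockouts RNA_11688, RNA_11718, RNA_11721 and RNA_11722, against 549, 906, 617 and 972 CPM in controls RNA_11673, RNA_11734, RNA_11735 and RNA_11745. The control mean was 6.76 times the knockout mean, and the log2 change was -2.76 (SE 0.193), the 5th lowest of 14476 genes. The tables hold at most 5 tags per position. Smox controls carried 5778 to 9033 counts, which would be, over its 2252 exon bases, 2.57 to 4.01 tags per base, and knockouts at most 0.673; how far the limit lowered the control values was not tested.

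Amd1 was at 31.6, 34.6, 33.6 and 28.5 CPM in RiboTag knockouts, against 92.7, 107, 85.6 and 125 CPM in controls, a control mean 3.20 times the knockout mean. Its log2 change was -1.68 (SE 0.124). Odc1 was at 20.5, 31.0, 25.3 and 25.2 CPM in knockouts, against 35.3, 76.2, 61.3 and 57.5 CPM in controls. Control RNA_11673 was the lowest control and still above every knockout, and the log2 change was -1.18 (SE 0.203). Azin1 was at 80.7, 79.4, 54.5 and 76.7 CPM in knockouts, against 117, 147, 134 and 112 CPM in controls (log2 change -0.81, SE 0.132). Knockout RNA_11721 stood apart at the low end, and the groups did not overlap.

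The remaining members overlapped between groups. Sms, the spermine synthase, was at 73.7 to 103 CPM in knockouts and 99.4 to 143 CPM in controls, with a log2 change of -0.47 (SE 0.125). Log2 changes were 0.12 for Sat1, 0.18 for Srm, 0.15 for Oaz1, 0.10 for Oaz2 and 0.29 for Paox. Again as a description, since the choice of Smox used these values, 4 of 10 members lay past an adjusted p of 0.05, all lower, beside 4.21% of 14476 genes in either direction and 2.25% lower. The members' median log2 change was -0.19, beside 0.01 over all genes. Among 27 markers of other cell types tested here, only the T cell gene Cd3e passed, lower, and 0 of 8 fibre markers passed (edgeR at an adjusted p below 0.05). T cell markers (Cd3e, Cd3g, Cd8a) summed to 1.96 to 2.65 CPM in knockouts and 5.04 to 11.4 CPM in controls, and none of the marker genes was at 0 in all libraries. Amd1 has a near-identical retrocopy, Amd2, listed at a mean of 32.1 CPM in knockouts and 102 CPM in controls beside 32.1 and 103 CPM for Amd1, so reads of the pair cannot be told apart. Odc1 and Oaz1 also have processed pseudogenes that could share reads.

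Footprints, the mRNA stretches covered by ribosomes, were sequenced from the same 8 RiboTag animals in separate libraries. Smox footprints were at 99.2, 80.2, 72.4 and 74.0 CPM in knockouts, against 362, 600.5, 423 and 499.6 CPM in controls. The groups lay far apart, the control mean was 5.79 times the knockout mean, and Smox fell by 2.53 on the log2 scale (SE 0.154, edgeR adjusted p = 1.44e-06). Azin1 footprints were at 145, 126, 141 and 140.4 CPM in knockouts, against 163, 178, 173 and 186 CPM in controls. The groups did not overlap, and Azin1 fell by 0.34 (SE 0.083, adjusted p = 0.00945).

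Odc1 footprints were at 12.1, 6.28, 6.63 and 4.74 CPM in knockouts, against 11.96, 13.1, 14.3 and 9.97 CPM in controls. Knockout RPF_11688 lay among the controls while the other 3 knockouts lay below them, and the change did not pass (log2 change -0.74, SE 0.279, adjusted p = 0.0650). Without knockout RPF_11688 it did (log2 change -1.06, adjusted p = 0.0142). Amd1 footprints numbered 1, 4, 2 and 1 counts in knockouts, against 12, 10, 18 and 20 counts in controls, and were too few for the filter. Fitted without the filter, Amd1 had a log2 change of -2.69 (SE 0.569, adjusted p = 0.00138), on at most 4 counts per knockout library.

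Among the other members, Oaz1 footprints were at 4.82, 5.14, 5.19 and 4.03 CPM in knockouts, against 3.35, 3.57, 2.47 and 3.94 CPM in controls. Every knockout lay above every control, by little, on 9 to 18 counts per library, and the change did not pass (log2 change 0.51, SE 0.277, adjusted p = 0.191). Sms footprints ran from 2.41 to 4.03 CPM in knockouts and from 1.196 to 10.8 CPM in controls (adjusted p = 0.310). Srm footprints ran from 18.0 to 22.9 CPM in knockouts and from 19.4 to 27.4 CPM in controls (adjusted p = 0.223). Sat1, at 13.8 to 22.6 CPM in knockouts and 10.7 to 16.8 CPM in controls (adjusted p = 0.194), and Oaz2, at 21.3 to 29.4 CPM in knockouts and 21.3 to 31.2 CPM in controls (adjusted p = 0.758), overlapped as well, and none of these 4 passed. Paox had 5 to 9 counts in knockouts and 2 to 10 counts in controls and was not tested.

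Of the members, 8 passed the filter and 2 of them (Smox and Azin1) were called, both lower, where 26.6% of 12979 genes were called and 15.7% were called lower. Without knockout RPF_11688 the count was 4, beside 2833 of 13284 genes; Odc1 was added, and Amd1 entered because the filter then asks for fewer libraries, which its control counts meet, so its call adds no support. Markers of other cell types fell in these libraries: 21 of 27 tested were lower and 0 higher, with all 5 endothelial, 5 macrophage, 5 fibroblast and 3 adipocyte markers among them. Endothelial markers summed to 116 to 301 CPM in knockouts and 326 to 575 CPM in controls, and macrophage markers to 211 to 536 CPM in knockouts and 620.1 to 889 CPM in controls. Of the 8 fibre markers, 3 were lower. The part of these cells in the footprint values of the members was not tested.

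**Figure D2:**
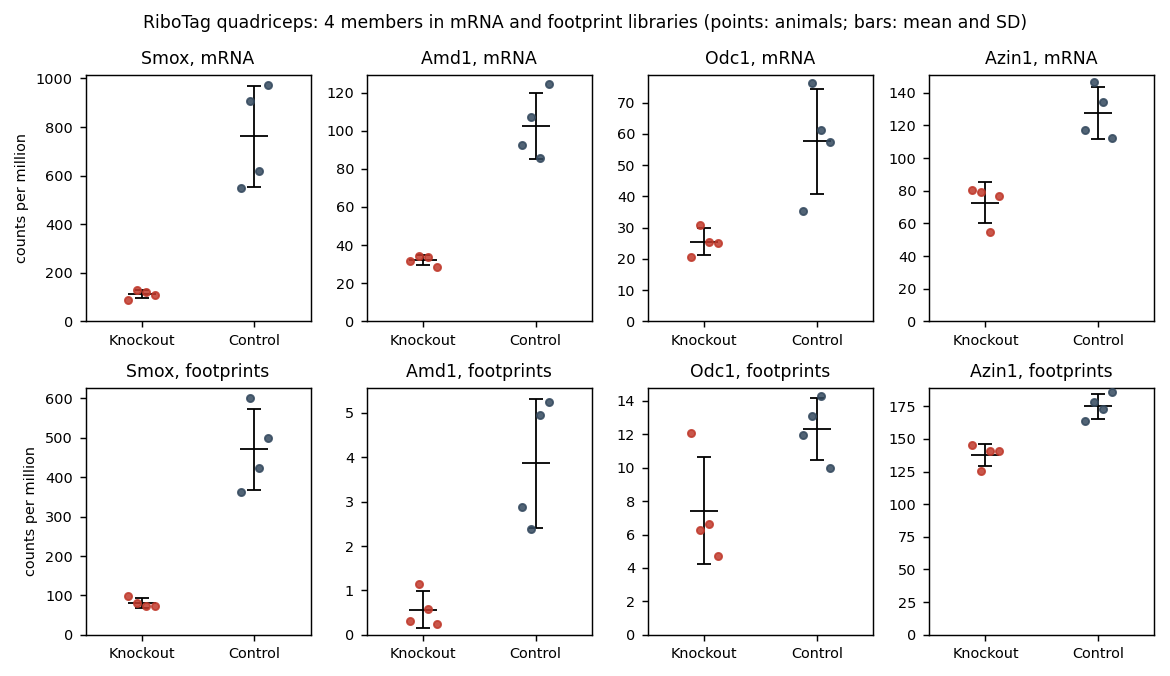
CPM of Smox, Amd1, Odc1 and Azin1 in RiboTag mRNA (top) and footprints (bottom) by animal, 4 knockouts left and 4 controls right, with mean and SD. Smox knockouts sit at 72.4 to 99.2 CPM in footprints below controls at 362 to 600.5 CPM, and 1 Odc1 knockout at 12.1 CPM lies among its controls.

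Translation efficiency, the footprint level relative to the mRNA level, shares the mRNA counts that are given above as a description. Smox had a footprint to mRNA ratio of 0.595 to 1.11 in knockouts and 0.514 to 0.685 in controls, with a log2 change of 0.26 (SE 0.259). Azin1 had a ratio of 1.58 to 2.58 in knockouts and 1.21 to 1.66 in controls. Its log2 change of 0.51 (SE 0.168) did not pass in the edgeR interaction test (adjusted p = 0.0593), and it passed with the animal as a block (log2 change 0.52, adjusted p = 0.0499), since both library types come from the same animals. It also passed in DESeq2 (adjusted p = 0.0312). The authors' deposited table gives Azin1 a log2 change in translation efficiency of 0.49 with an adjusted p of 0.0710.

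Amd1 had a ratio of 0.00832 to 0.0330 in knockouts and 0.0222 to 0.0578 in controls (log2 change -1.03, SE 0.507), and Odc1 one of 0.188 to 0.588 in knockouts and 0.172 to 0.339 in controls (log2 change 0.47, SE 0.358). Log2 changes were -0.42 for Srm, 0.41 for Oaz1, 0.31 for Sat1, -0.19 for Sms, -0.14 for Oaz2 and -0.01 for Paox. In the fit without the block, 0 of 10 members passed in edgeR, where 9.91% of 14935 genes did. An unadjusted p below 0.05 was held by 1 member, beside 26.9% of all genes. Of 27 markers of other cell types, 11 were lower in translation efficiency and 0 higher, among them 5 of 5 endothelial and 4 of 5 fibroblast markers, and 0 of 8 fibre markers passed (edgeR). Their part in the members' ratios was not tested.

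**Figure D3:**
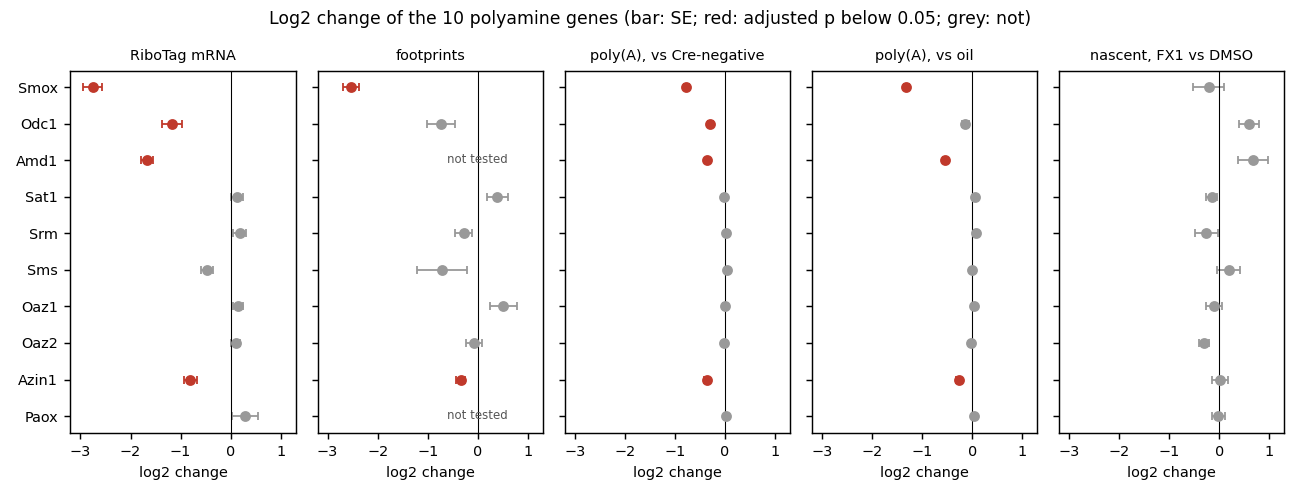
Log2 change and SE of the 10 members in 5 comparisons, knockout or FX1 over its control, red where the adjusted p is below 0.05. Smox, Amd1 and Azin1 lie left of 0 in RiboTag mRNA and in both poly(A) comparisons, from -2.76 for Smox in RiboTag mRNA to -0.27 for Azin1 against oil, and no member is red in nascent RNA.

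The genes whose RNA varied most like Smox were sought among 13575 genes, by the smaller of the Pearson correlations with Smox over 9 poly(A) libraries and over 8 RiboTag mRNA libraries. Both sets of libraries are split by the knockout and the correlations are signed. A gene lower in knockouts, as Smox is, therefore scores high, and a gene higher in knockouts scores low. The first 5 were Fam131a (r = 0.988 and 0.996), Dupd1 (0.985 and 0.983), Amd1 (0.983 and 0.992), its retrocopy Amd2 (0.982 and 0.992) and Ppm1l (0.972 and 0.980). Dupd1 encodes a dual-specificity phosphatase and had log2 changes of -0.63 in poly(A) RNA and -1.90 in RiboTag mRNA. Odc1 ranked 131st (r = 0.888 and 0.926) and Azin1 243rd (r = 0.833 and 0.871). The other members ranked 8797th or lower.

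Beyond the members, 27 genes of ornithine supply, S-adenosylmethionine supply and methionine salvage, hypusine formation, transport and close relatives were counted. This list was chosen with earlier results of these data known, so its calls and p-values are read as a description. Against Cre-negative mice, 2 of 20 tested were higher and 4 lower, beside 15.3% of all genes called and 9.22% called lower. Atp13a3, a polyamine transporter, stood at 9.17 ± 0.025 in knockouts (SD, n = 5) and 9.42 ± 0.049 in Cre-negative mice (SD, n = 4) on the authors' log2 scale and fell by 0.25 (limma adjusted p = 3.90e-05). Aldh18a1, which makes a precursor of ornithine and proline, fell by 0.25 (adjusted p = 0.00119), Amd2 by 0.35 and Mat2a, which makes S-adenosylmethionine, by 0.09 (adjusted p = 0.0488). Amd2 reads cannot be told apart from those of the member Amd1, so no p-value is given for Amd2. Its calls, counted here and below, repeat those of Amd1 and add nothing to them. Mri1, of methionine salvage, rose by 0.11 (adjusted p = 0.0399) and Dhps, of hypusine formation, by 0.08 (adjusted p = 0.0397). Against oil, 2 of 20 were higher and 6 lower, beside 23.4% of all genes called. The 6 above passed in the same directions, and Azin2 and Slc18b1 were also lower.

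In RiboTag mRNA, where 4.21% of all genes were called, 0 of 22 of these genes were higher and 2 lower, Mat2a (242 ± 20.03 CPM in knockouts and 352 ± 66.9 CPM in controls, SD, n = 4 each; edgeR adjusted p = 0.0346) and Amd2. In footprints, 1 of 18 was higher, Mri1 (adjusted p = 0.00590), and 2 lower, a smaller share than the 26.6% of all genes called. Aldh18a1 footprints were at 30.6 ± 7.83 CPM in knockouts and 72.0 ± 17.7 CPM in controls (SD, n = 4 each) and fell by 1.24 (adjusted p = 0.00149). Mat2a footprints were at 114 ± 12.1 CPM in knockouts and 179 ± 13.1 CPM in controls (SD, n = 4 each) and fell by 0.65 (adjusted p = 0.00100). For translation efficiency, where 9.91% of all genes were called, 1 of 23 was higher (Adi1, by 0.48, adjusted p = 0.0310) and 2 lower (Aldh18a1, log2 change -0.86, adjusted p = 0.0281, and Eif5a2, adjusted p = 0.0466). The median log2 change of these genes was -0.01 against Cre-negative mice, -0.04 against oil, -0.06 in RiboTag mRNA, -0.01 in footprints and 0.04 in translation efficiency, beside 0.00, 0.00, 0.01, 0.00 and 0.05 over all genes.

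Nascent RNA in wild-type muscle asks what inhibiting BCL6 with FX1 does to transcription of the same genes. Smox was at 13.11, 13.49, 14.19, 12.33 and 12.35 in FX1 libraries 1 to 5, against 13.23, 13.13, 13.28, 13.62 and 13.30 in DMSO libraries, on the authors' log2 scale for tags in gene bodies. FX1 libraries ran from 12.33 to 14.19, reaching both below and above the DMSO libraries (13.13 to 13.62). The change did not pass (log2 change -0.22, SE 0.313, limma adjusted p = 0.672). Odc1 was at 10.60, 10.66, 10.77, 9.97 and 9.79 in FX1 libraries, against 9.60, 9.85, 10.14, 9.48 and 9.77 in DMSO libraries. Libraries 1, 2 and 3 with FX1 lay above every DMSO library, and the change did not pass (log2 change 0.59, SE 0.204, adjusted p = 0.0603).

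Amd1 was at 11.75, 12.23, 13.35, 11.67 and 11.54 with FX1, against 11.89, 11.22, 11.38, 11.29 and 11.43 with DMSO (log2 change 0.67, SE 0.302, adjusted p = 0.141). FX1 library 3 was the highest of all 10 libraries for Smox, Amd1, Odc1, Sms and Azin1 and the lowest for Srm and Oaz1. Oaz2 was at 8.34, 8.27, 8.54, 8.11 and 8.18 with FX1, against 8.68, 8.55, 8.55, 8.71 and 8.51 with DMSO. All FX1 libraries but library 3 lay below the DMSO libraries (log2 change -0.31, SE 0.104, adjusted p = 0.0537). Sms, Azin1, Sat1, Srm, Oaz1 and Paox had log2 changes of 0.19, 0.01, -0.15, -0.26, -0.11 and -0.02, with adjusted p from 0.363 to 0.969.

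In limma, 0 of 10 members passed in nascent RNA, where 20.6% of 15683 genes did. An unadjusted p below 0.05 was held by 3 members (Odc1, Oaz2 and Amd1), beside 34.5% of all genes. Odc1 passed without FX1 library 4 (adjusted p = 0.0407) or 5 (adjusted p = 0.0229), and Oaz2 without FX1 library 3 (adjusted p = 0.00991). The authors' deposited table gives adjusted p of 0.0174 for Odc1 (log2 change 0.80), 0.0325 for Amd1 (log2 change 1.01) and 0.0232 for Oaz2 (log2 change -0.43). Of the 27 other polyamine genes, 24 were tested, 4 were higher (Slc3a2, Atp13a3, Mat2a and Oat) and 2 lower (Adi1 and Satl1), beside the 20.6% of all genes. Slc3a2, a transporter subunit linked to polyamine export, rose by 0.46 (adjusted p = 0.0171), Atp13a3 by 0.43 (adjusted p = 0.0165) and Mat2a by 0.81 (adjusted p = 0.0460). Fibre markers fell for 5 of 8 genes, adipocyte markers for 3 of 3 and Cd8a among T cell markers, and no other marker passed. Their part in the members' values was not tested.

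**Figure D4:**
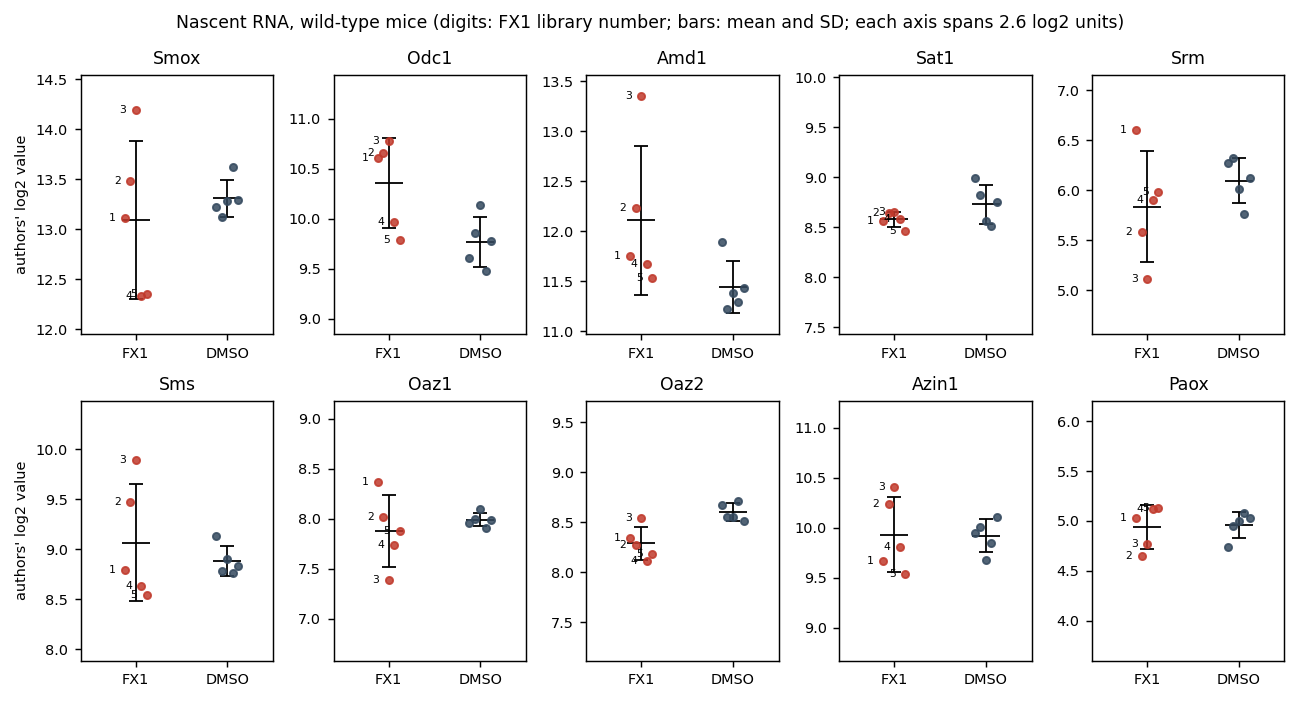
Authors' log2 values of the 10 members in nascent RNA, 5 FX1 libraries (numbered) left and 5 DMSO libraries right, with mean and SD. FX1 library 3 is at 14.19 for Smox and 13.35 for Amd1, above all other libraries, and FX1 libraries 4 and 5 at 12.33 and 12.35 for Smox, below all others.

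BCL6 peaks, from 1 wild-type library without replicate, were listed for 6 of the 10 members: 6 for Smox, 3 for Oaz2 and 1 each for Oaz1, Azin1, Paox and Sat1, with none listed for Odc1, Amd1, Srm or Sms. Of 6358 genes with a peak, 150 (2.36%) had as many as Smox or more, where the median was 1. The peak score is the authors' own (11.0 to 1204 over the list, median 23.3). The Smox peaks scored 55.1 at 43799 bases before the start, 15.9 and 49.0 at 1244 and 2167 bases after it in intron 1, 39.2 and 40.4 at 18290 and 19284 bases in the same intron, and 17.2 at 21552 bases in intron 2. The highest score among members was 126 for a peak 44869 bases after the Oaz2 start. That peak (from 65721307 on chromosome 9) and the one at 51746 bases lie past the listed end of Oaz2 (65690300). Both are inside an intron of a transcript other than the listed Oaz2 one, and are assigned to Oaz2 by nearest-gene name only. The Oaz1 peak (chr10:80826235-80826455, score 41.7) lies 311 bases before the start and covers the capitals in the sequence above, and the Sat1 peak (score 15.9) lies 390 bases before the start.

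H3K27ac, the mark of active promoters and enhancers, was counted in 1000 bp windows on these peaks in 3 knockouts and 3 Cre-negative mice whose numbers match mice of the poly(A) RNA set, as tags per 10000000. The Smox window at 1244 bases held 45.4, 67.3 and 53.5 in knockouts mKO_1896, mKO_1900 and mKO_1907, against 125, 124 and 97.8 in Cre-negative mice Ctr_1898, Ctr_1899 and Ctr_1906. Every knockout lay below every control, and the window fell by 1.06 on the log2 scale (SE 0.167, limma adjusted p = 5.06e-04), the 45th lowest of 9080 windows. The Smox window at 2167 bases held 28.3, 39.2 and 32.5 in knockouts, against 81.3, 52.1 and 45.8 in Cre-negative mice, again without overlap, and fell by 0.79 (SE 0.218, adjusted p = 0.0206). The windows share their edge (131492606 to 131493606 and 131493529 to 131494529 on chromosome 2), so they are not independent. The second was lost without mKO_1896, mKO_1907, Ctr_1898 or Ctr_1899 (adjusted p 0.0501 to 0.0818).

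The other 4 Smox windows were also lower in every knockout than in any control, without passing. The window at 43799 bases before the start held 18.9, 28.2 and 27.01 in knockouts, against 30.7, 29.9 and 38.2 in Cre-negative mice (adjusted p = 0.214). The windows at 18290, 19284 and 21552 bases after the start had log2 changes of -0.12, -0.20 and -0.47 (adjusted p = 0.520, 0.329 and 0.195). Thus 6 of 6 Smox windows had groups without overlap, lower, where 5.91% of 9080 windows did. The 6 windows belong to the same gene in the same mice, and those at 18290 and 19284 bases also share an edge. They are therefore not 6 separate results.

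Of the windows on other members, Oaz2 at 3459 bases before the start held 103, 113 and 95.0 in knockouts, against 66.0, 72.0 and 66.8 in Cre-negative mice. It rose by 0.59 (SE 0.134, adjusted p = 0.00678), and was lost with quantile normalization (log2 change 0.39, adjusted p = 0.0566). The Azin1 window at 24951 bases before the start held 139.9, 134 and 120.03 in knockouts, against 169, 167 and 127 in Cre-negative mice (log2 change -0.22, adjusted p = 0.273). The Oaz1, Paox and Sat1 windows had log2 changes of 0.12, -0.20 and -0.10, without passing. The Oaz2 window at 44869 bases, past the listed end of Oaz2, had one of 0.35 and did not pass either. In all, 3 of 12 tested windows passed, 2 lower and 1 higher, where 18.1% of 9080 windows passed, 1.44% lower and 16.7% higher. The median window was shifted by 0.14 on the log2 scale, and relative to it the 3 called windows changed by -1.19, -0.93 and 0.46. Of the windows called in the whole table, 92.1% were higher as deposited, 62.5% with quantile normalization and 72.4% with TMM on recovered reads.

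The acute and chronic series, named by 1 and 12 weeks in their column names, used other animals and merged H3K27ac regions. The Smox region 15241 bases after the start, singled out after its values were seen, held 37.0, 66.6 and 38.5 in acute knockouts, against 88.3, 65.4 and 62.7 in Cre-negative mice. One knockout lay among the controls, and the change did not pass (log2 change -0.63, SE 0.216, adjusted p = 0.412). In the chronic series the region held 28.9, 39.7 and 44.9 in knockouts, against 89.6, 51.3 and 80.4 in Cre-negative mice. The groups did not overlap, and the change did not pass (log2 change -0.93, SE 0.255, adjusted p = 0.259), but did without Cre-negative mouse Ctr_1801 (log2 change -1.17, adjusted p = 0.00287) and with edgeR on recovered reads (log2 change -0.99, adjusted p = 0.0210). The Smox regions at 887 and 2047 bases, which overlap the BCL6 peaks of the called windows, had log2 changes of -0.15 and -0.48 in the acute and -0.34 and -0.61 in the chronic series, with adjusted p from 0.781 to 0.931.

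Among the 50 regions of members, 0 of 48 tested passed in the acute series in limma, where 0.0979% of 71480 regions did, and 0 of 45 in the chronic series, where 0.178% of 67918 did. At an unadjusted p below 0.05 there were 2 and 8, beside 7.83% and 6.85% of all regions, and edgeR on recovered reads called 0 and 1. Groups did not overlap for 3 regions lower and 1 higher in the acute and 6 lower and 5 higher in the chronic series, where 12.9% and 12.6% of all regions had no overlap. Of the Smox regions tested, 6 of 9 had a negative log2 change in the acute and 6 of 8 in the chronic series, beside 49.3% and 46% of all regions, and none passed in limma. Of the Odc1 regions, 3 of 4 and 4 of 4 had negative log2 changes, and Amd1 had a single region, 10891 bases before its start, with log2 changes of 0.40 and -0.18. No region was without overlap and lower in both series. The Oaz2 regions from 15356 to 48686 bases after the start lie past the listed end of Oaz2 and are assigned to it by nearest-gene name only.

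**Figure D5:**
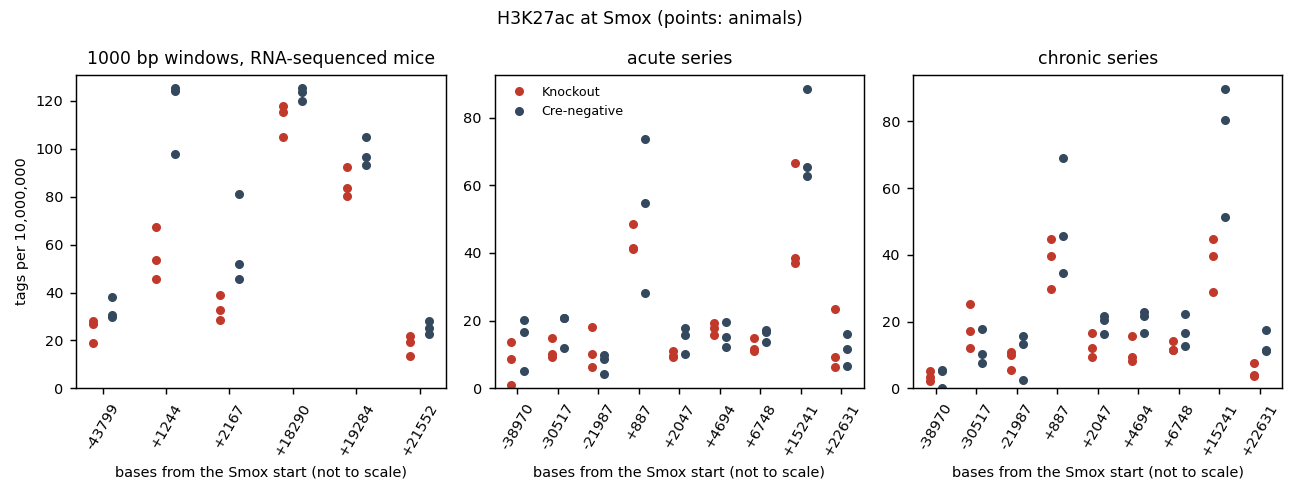
H3K27ac at Smox in tags per 10000000, by distance from its start, for windows on BCL6 peaks and for the acute and chronic series, 3 knockouts (red, left) and 3 Cre-negative mice (blue, right) each. All 6 windows have every knockout below every Cre-negative mouse, and the region at 15241 bases is without overlap in the chronic series.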

How the data were processed

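Values of 57 of 74 samples and the BCL6 peak list were used; the other samples were not used here. Members and lists were chosen with earlier results of these data known. The submitters' processing notes name mm10, STAR 2.4.0, Bowtie 1.2, HOMER and DESeq2 1.14.1, without saying which step used which. Poly(A) and nascent RNA came as log2 values, which HOMER gave the authors, per the file headers, from tags in exons or gene bodies, by a transform not given in the sources used here. RiboTag mRNA and footprints came as deposited counts, limited by the authors to 5 tags per position. H3K27ac came as a deposited signal scaled to 10000000 tags, and peaks with the authors' own score. Adjusted p-value, log2 change and translation efficiency ratio columns deposited by the authors are named as theirs.

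For counts, the quasi-likelihood test of edgeR 4.0.16 with TMM scaling was run on genes kept by filterByExpr (minimum count 10); the change in translation efficiency was the interaction of genotype and library type. For log2 values (mean at least 3.32) and log2 of signal plus 1 (mean at least 5), limma 3.58.1 was run with a variance trend. Benjamini-Hochberg adjustment covered all features of a comparison, and calls were made below 0.05. CPM are counts over TMM-scaled library sizes. Named genes were the members, Bcl6, called genes of the 27-gene list (up to 5 a comparison by p, others where they complete a count) and the 5 genes most like Smox. Named regions were those called, the nearest to each start and further Smox regions. Alternatives were other normalizations, filters, pseudocounts, DESeq2 1.42.0, blocks and leaving out each library; edgeR on reads recovered from the signal (100% whole within 0.1 of a read) was added after seeing the data. The p-values set each difference between groups against the spread between these samples, with variance estimates that draw on all features. No RNA libraries were identical, and the fits were tested on simulated data. Footprint and mRNA libraries of a RiboTag number come from the same animal, which pairs them (correlations of deviations -0.027 to 0.349). The main fit of translation efficiency did not use this pairing, and the fit with the animal block did. One result among the markers of other cell types is not reported here.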

Additional observations from a re-analysis of the deposited data

Results flagged for a closer look

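Of 90 sets of member values (a gene in a group of 4 or 5 libraries), 3 held a library far from the rest of its group, by the gap to its neighbour relative to the range; chance alone gives about 1 in 20. Oaz1 was at 8.18 in knockout P1896 in poly(A) RNA, below the other knockouts. Azin1 was at 54.5 CPM in RiboTag mRNA of knockout RNA_11721, below the other knockouts. Sat1 was at 42.1 CPM in RiboTag mRNA of control RNA_11673, above the other controls.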

How the results depend on the processing

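Of 1083 alternative values for single members and regions, 1009 kept direction and side of the threshold, 6 lost it, 19 gained it and 49 changed sign. Calls of members moved as follows. Against Cre-negative mice Odc1 no longer passed without the filter on low values. Against oil Odc1 passed without knockout P1907, and the count with a library left out ran from 3 to 4, against 3. In RiboTag mRNA Sms passed in DESeq2 and without RNA_11688 or RNA_11673, and the count with a library left out ran from 4 to 5, against 4. Member p-values of these comparisons are not printed, as above. In nascent RNA 1 member passed with quantile normalization (Oaz2, adjusted p = 0.0343) and 1 with the replicate block (Odc1, adjusted p = 0.0494), and 0 to 1 with a library left out, against 0. The shared numbers of FX1 and DMSO libraries do not pair them (correlations of deviations -0.43, -0.037, -0.31, -0.24 and 0.18), and with that block 1853 genes were called against 3229. For footprints the count ran from 2 to 4, against 2. For translation efficiency 1 (Azin1) passed in DESeq2, 1 with the replicate block of the animal and 0 to 1 with an animal left out, against 0; the animal block changed no other call of a member. Of the genes called for translation efficiency 29.5% were higher, 40.6% in DESeq2 and 18.7% without the filter. In the chronic series 1 region passed with recovered reads and 0 to 1 with a library left out, against 0. The Azin1 window passed with quantile normalization (log2 change -0.42) and recovered reads (-0.39), and the Smox window at 19284 bases with quantile normalization (-0.39).

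Sign changes were in values that had not passed, and the cause was not tested. With quantile normalization Sms became 0.022 against oil, Azin1 -0.12 and Paox 0.043 in nascent RNA, and the Oaz1 window -0.065 (-0.054 with recovered reads). Paox translation efficiency became 0.0033 with DESeq2 size factors, 0.0027 in DESeq2 and 0.056 with the animal block, and the chronic Azin1 region at 446 bases -0.019 with recovered reads. With a library left out, the ranges were -0.030 to 0.0082 for Oaz1 against Cre-negative mice, -0.022 to 0.0040 for Sms against oil, -0.11 to 0.11 for Azin1, -0.075 to 0.053 for Paox, -0.020 to 0.32 for Sms and -0.24 to 0.011 for Oaz1 in nascent RNA, -0.19 to 0.015 for Oaz2 footprints, and -0.46 to 0.45 for Sms and -0.30 to 0.22 for Paox translation efficiency. For regions nearest a start they were -0.14 to 0.10 (Azin1), -0.042 to 0.22 (Odc1), -0.20 to 0.057 (Sat1), -0.53 to 0.15 (Smox) and -0.30 to 0.14 (Paox) in the acute series, -0.092 to 0.15 (Oaz2), -0.26 to 0.31 (Azin1), -0.59 to 0.24 (Sat1) and -0.12 to 0.14 (Paox) in the chronic series, and -0.24 to 0.068 for the Sat1 window.

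Counts over all features moved by over 1.5 times in RiboTag mRNA with DESeq2 (961 against 609) and without RNA_11734, RNA_11722 or RNA_11735 (395, 396 and 398), against Cre-negative mice without the filter (1387 against 2096), in footprints without RPF_11721 (2293 against 3446), in translation efficiency without animal RPF_11734, RPF_11722, RPF_11721, RPF_11735, RPF_11688 or RPF_11673 (310, 373, 408, 551, 571 and 982 against 1480), in the acute series with a pseudocount of 5 (146), recovered reads (167) or without imKO_6349, imKO_6346 or Ctr_6366 (10, 15 and 31) against 70, in the chronic series with a pseudocount of 5 (240), quantile normalization (307), recovered reads (380) or without imKO_1794, imKO_1802, imKO_1803 or Ctr_1801 (0, 0, 6 and 400) against 121, and in windows without mKO_1900 or mKO_1907 (1043 and 1053 against 1648). Low footprint counts limit Amd1, Oaz1, Sms and Paox, and 3 animals a group limit H3K27ac.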

Other observations

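Within RiboTag control muscle the members differed in how many footprints they carried for their mRNA. The ratio of mean footprint CPM to mean mRNA CPM was 0.0376 for Amd1, 0.0432 for Sms, 0.123 for Oaz1 and 0.214 for Odc1, where the median of 14833 genes was 1.05; 1.62%, 1.81%, 4.09% and 6.98% of genes were lower. Oaz2 stood at 0.309, Sat1 at 0.383, Smox at 0.619 and Paox at 0.751. Azin1 (1.37) and Srm (1.203) lay above the median. As background, Amd1, Odc1 and the antizymes are textbook cases of control at translation, by upstream reading frames or, for the antizymes, a ribosomal frameshift. Several ratios rest on few footprint counts per control library: 10 to 20 for Amd1, 5 to 41 for Sms, 9 to 15 for Oaz1 and 2 to 10 for Paox. Reads shared between Amd1 and its retrocopy, and pseudogenes of Oaz1 and Odc1, bear on these ratios in a way that was not tested.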
